A study of Mus musculus with 7 samples.

Results

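The interferon response and innate sensing genes were a set of 38 mouse genes, chosen by name from the 55335 gene identifiers counted, with identifiers matched to mouse Gencode symbols after the version number was dropped. They comprised 6 sensors and adaptors, 7 interferon receptors, STAT and IRF factors, 18 interferon-stimulated effectors and modifiers, and 7 genes of class I antigen presentation, and all 38 were matched. Their expression was measured in cultured neural stem cells (NSCs), dividing precursor cells of the brain, of the FVB/N strain, grown with EGF and bFGF and given no other treatment. The comparison was between 4 wild-type (WT) samples and 3 samples carrying the MommeD1 allele of Smchd1 (Smchd1-null), a gene for a chromatin-bound repressor of the SMC protein family, and it asked which of these genes differ in level when Smchd1 is lost. Polyadenylated RNA was sequenced as unamplified cDNA on nanopore flow cells in 2 batches that differed in kit and flow cell. Null 1, null 2 and WT 2 were in batch 1, null 3, WT 3 and WT 4 in batch 2, and WT 1 in both. The labels describe each sample as a cell line but do not say whether the lines came from separate animals, and the age of the animals was not given, so the p-values measure the spread between these 7 samples only.

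As background, cells recognise foreign or misplaced nucleic acid with sensors in endosomes (some Toll-like receptors) and in the cytosol. The cytosolic sensors (RIG-I and MDA5 for RNA, cGAS for DNA) signal through the adaptors MAVS and STING to IRF transcription factors. These factors switch on interferon genes. Secreted interferon binds a receptor on the same or neighbouring cells, and a complex that holds STAT2 and IRF9 then binds interferon-stimulated response elements (ISREs) in the promoters of antiviral effector genes. Some of these genes, such as those of class I antigen presentation and the Ifitm genes, are also transcribed at a basal level without interferon, and stem cells are known for such basal expression of a subset of interferon-stimulated genes.

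The promoters of these genes are the sequences through which the pathway acts, so the ISRE letters were searched for in them, as GAAANNGAAA on either strand, within 300-base windows that run from 250 bases before to 50 bases after each RefSeq start (GRCm38.p6). Windows were found for 32 of the 38 members. Some members have several windows, 38 in all. The letters were present in 12 of these 38 windows (31.6%), each of a different member, and in 3.44% of all 32851 windows in the table. The shorter gamma-activated site, TTCNNNGAA, can share bases with an ISRE match, and was present in 9 of the 38 windows (23.7%) against 8.30% of all windows. The ISRE letters were in 8 of the 22 members with a window that were expressed enough to be tested and in 4 of the 10 that were not. The bases before the start are shown for a gene with too few counts to be tested (Isg15, chr4:156200819-156201068, minus strand). They are also shown for the most abundant member per kb (B2m, chr2:122147437-122147686, plus strand) and for an effector of intermediate level (Bst2, chr8:71537473-71537722, minus strand). For the member with the lowest p (Ifitm3, chr7:141010716-141010742, minus strand) the shown stretch is the pair of matches just after its RefSeq start, inside the Gencode gene. Each is written 5′ to 3′ on the strand of its gene with the ISRE letters in capitals.
Isg15: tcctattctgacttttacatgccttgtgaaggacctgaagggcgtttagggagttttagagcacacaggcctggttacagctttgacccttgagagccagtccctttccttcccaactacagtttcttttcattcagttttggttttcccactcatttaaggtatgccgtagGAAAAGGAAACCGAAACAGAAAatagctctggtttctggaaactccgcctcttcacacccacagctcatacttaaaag
B2m: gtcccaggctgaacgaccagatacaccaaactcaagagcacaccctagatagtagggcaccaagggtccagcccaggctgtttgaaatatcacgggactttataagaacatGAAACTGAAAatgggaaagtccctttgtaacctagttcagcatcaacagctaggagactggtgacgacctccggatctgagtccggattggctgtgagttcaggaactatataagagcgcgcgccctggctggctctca
Bst2: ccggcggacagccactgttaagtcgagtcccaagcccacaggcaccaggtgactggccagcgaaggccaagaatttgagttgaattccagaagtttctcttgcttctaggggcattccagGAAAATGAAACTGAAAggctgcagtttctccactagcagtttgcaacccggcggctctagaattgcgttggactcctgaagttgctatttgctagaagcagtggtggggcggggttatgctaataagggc
Ifitm3: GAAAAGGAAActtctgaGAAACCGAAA

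In Isg15, 3 overlapping matches began at positions -78, -72 and -66 from the start. Bst2 held 2 overlapping matches, which began at -130 and -124, and B2m held 1, which began at -139. The matches of Ifitm3 began at bases 3 and 20 of its RefSeq transcript. A match is a run of letters only, and the files hold no measurement of factor binding.

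A further promoter is shown because 2 members share it. Tap1 and Psmb9 are transcribed away from each other from starts 226 bases apart, and their windows share 275 bases. The 250 bases before the Tap1 start (chr17:34187306-34187555, plus strand) are given with the 25 bases at and beyond the Psmb9 start in capitals. Neither window held the ISRE or gamma-activated site letters.
Tap1: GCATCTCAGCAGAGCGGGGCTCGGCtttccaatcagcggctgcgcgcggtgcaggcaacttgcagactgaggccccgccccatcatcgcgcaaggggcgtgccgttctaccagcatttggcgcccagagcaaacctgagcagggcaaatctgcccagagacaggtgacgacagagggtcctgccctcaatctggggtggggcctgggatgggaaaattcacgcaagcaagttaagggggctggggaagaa

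Libraries held 2741820 to 7736498 gene counts, 33311549 in all. Levels are given as CPM, that is counts scaled to a common library size after TMM scaling. Smchd1 stood at 66.9, 56.4, 74.7 and 55.7 CPM in WT 1 to 4 and at 17.3, 12.8 and 18.4 CPM in null 1 to 3, a log2 fold change (logFC) of -2.15 ± 0.18 (SE, limma adjusted p = 0.000110), in the direction the labels give. All 10 neural stem cell markers were detected in every sample, with a summed level of 8902 to 13268 CPM in WT and 8732 to 10088 CPM in Smchd1-null samples. Fabp7 and Vim gave 201493 and 78120 of their 333782 counts, so the sum says little of the others. None of the 10 was called at 0.25. Msi1 was lower without overlap (36.6 to 48.5 CPM in WT, 29.4 to 36.3 in Smchd1-null samples), and Vim higher without overlap (2186 to 2346 and 2405 to 2554). Hes5 overlapped, with means of 82.7 and 37.5 CPM. Of 12 microglia and macrophage markers, cells that express many members strongly, C1qa, C1qb and Tyrobp had 0 counts in all samples, Cd68 had 155 in all, P2ry12 22, Fcer1g 18, and the other 6 had 1 to 10 each. The list summed to 5.86 to 7.55 CPM in WT and 4.11 to 9.01 CPM in Smchd1-null samples. Endothelial markers (6 genes) summed to 1.55 to 5.24 against 1.13 to 3.99 CPM, and fibroblast and pericyte markers (7 genes, Lum at 0 in all) to 0 to 5.32 against 1.13 to 2.81 CPM. WT 4 stood apart in markers of differentiated cells. The 6 oligodendrocyte markers summed to 631 CPM in WT 4, to 110 to 220 CPM in the other WT samples and to 139 to 160 CPM in Smchd1-null samples, with astrocyte markers at 313 against 135 to 189 and 112 to 190 CPM and neuron markers at 77.3 against 29.6 to 37.6 and 26.6 to 33.3 CPM. Their part in the results on these genes was not tested. In bulk samples, fewer cells of a type and less RNA per cell cannot be told apart.

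The 38 genes drew 30450 counts over the 7 samples, and 71.6% of these came from only 4 genes, B2m, H2-K1, H2-D1 and Ifitm3. Scaled to gene length, WT levels were 259 ± 35.0 CPM per kb (SD, n = 4) for B2m, the light chain of class I molecules, 134 ± 26.3 for Ifitm3, a membrane protein that restricts virus entry, 73.4 ± 20.7 for H2-K1 and 29.1 ± 5.99 for H2-D1, the class I heavy chains. Bst2 (tetherin, which holds budding virus at the cell surface) at 18.9 ± 6.08, Ifitm2 at 18.3 ± 6.84 and Irf3 (the factor that responds to the nucleic acid sensors) at 12.7 ± 2.10 CPM per kb came next, and the levels of Bst2 and Ifitm2 differed by less than the spread between samples. The other genes stood at or below 7.33 CPM per kb, the WT level of Ifnar1, a chain of the type I interferon receptor. This order depends on the division by length, which favours short genes. The paper holds that reads of unfragmented cDNA should in theory carry no length bias. Without the division, mean WT levels were 222 CPM for B2m, 216 for H2-K1, 91.1 for Ifitm3 and 75.1 for H2-D1. Irf3 (43.8 CPM), Ifnar1 (43.5 CPM) and Mavs (23.6 CPM) then stood above Bst2 (17.1 CPM), and Ifitm2 was lower still.

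Several effectors, among them Isg15, Ifit1 and Mx1, were close to the limit of detection. In all, 13 of the 38 genes failed the filter on low counts and were not tested, with 1 to 46 counts each and 196 together, and the highest level any of them reached was 2.60 CPM (Isg15 in null 3). Isg15, a ubiquitin-like modifier and a strongly inducible gene of the pathway, had 1.47, 1.11, 0.786 and 1.71 CPM in WT and 1.50, 0.799 and 2.60 CPM in Smchd1-null samples, so the groups overlapped. Ifit1, which binds viral RNA, had 13 counts in all, and Irf7, the factor that amplifies interferon production, had 18. Mx1, a GTPase that blocks virus replication, had 2 counts, both in null 2, and Ifit3 had 1, also in null 2. A count of 0 allows up to 3 counts, that is 0.514 to 0.787 CPM in a WT library, for counting error only, so small differences in these genes could not be seen at this depth. Psmb8, an immunoproteasome subunit, had 2, 2, 1 and 4 counts in WT and 1, 15 and 8 counts in Smchd1-null samples, with the groups overlapping at null 1. The remaining untested genes were the sensors Ifih1 and Tlr2, the effectors and regulators Usp18, Ifitm1, Oasl2 and Xaf1, and Nlrc5, the activator of class I genes.

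**Figure D1:**
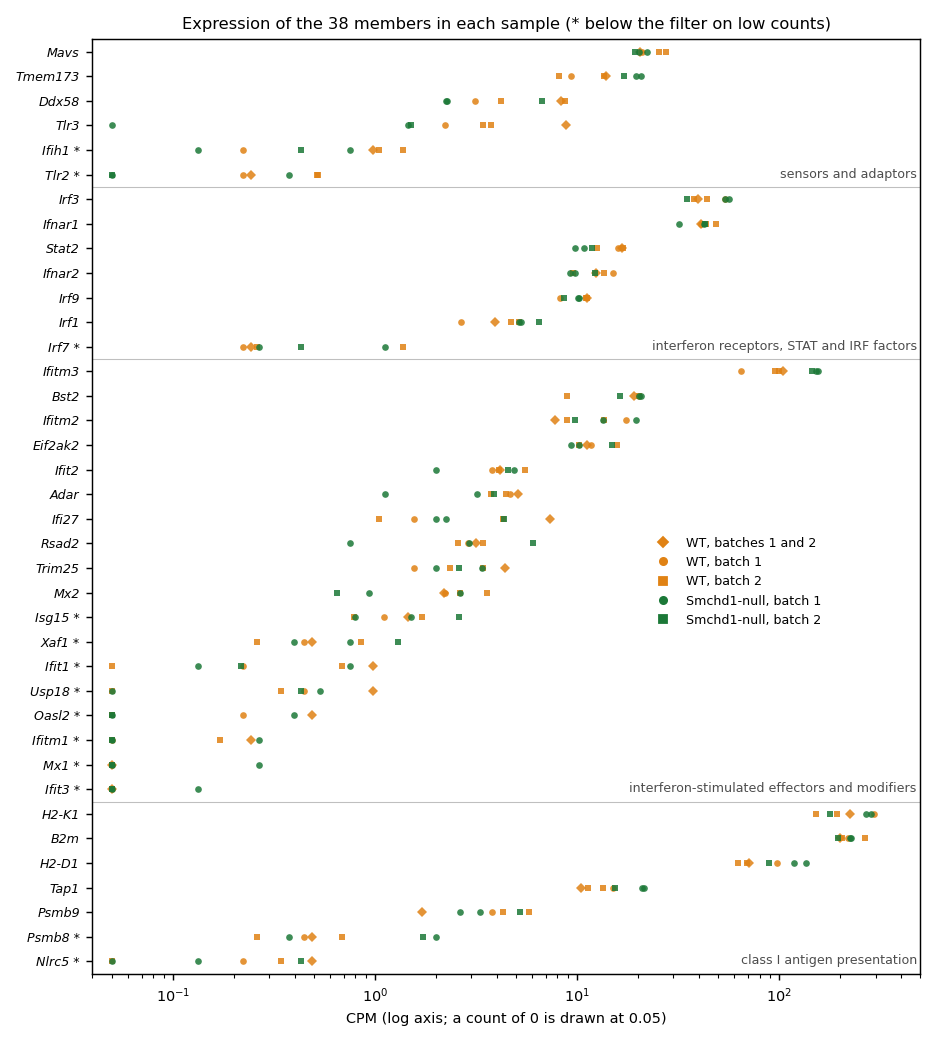
CPM (log axis) of each of the 38 genes in each of the 7 samples, grouped by role, with WT in orange, Smchd1-null in green and marker shapes for the sequencing batch. B2m, H2-K1, H2-D1 and Ifitm3 lie at 62.8 CPM or above in every sample, while the 13 genes marked with an asterisk stay at or below 2.60 CPM.

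Of the 25 genes tested between genotypes, 4 differed at the liberal adjusted p cutoff of 0.25, against 1.08% of all 13305 genes tested. The members were chosen with earlier results of these data known, so this contrast and those that follow are descriptions only. The limma fit gave null 1 and null 2, both of batch 1, the largest sample weights, 2.03 and 1.83. Null 3 had a weight of 0.67, and the WT samples had weights of 0.45 to 1.29. A limma logFC can therefore differ from a comparison of the mean CPM values. Ifitm3, H2-D1 and Tmem173 were higher in Smchd1-null NSCs, where 0.474% of all genes were called higher, and Tlr3 was lower, where 0.609% were called lower. None passed the default cutoff of 0.05, which 0.0902% of all genes passed, and edgeR's quasi-likelihood test called none at 0.25, while DESeq2 called Ifitm3 at that cutoff. At an unadjusted p below 0.05 there were 9 members by limma, 4 higher and 5 lower, against 13.9% of all genes by limma. By edgeR there were 6, and the edgeR share of all genes is not given here. The groups did not overlap for 6 of the 25, against 5.53% of all genes. Of the fitted values, 10 lay above 0 and 15 below, with a median logFC of -0.13 against 0.0049 over all genes, and the members' median was 0.0078 once the share of each library from batch 2 was a term. Fitted values above and below 0 were both present in each of the 4 roles.

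**Figure D2:**
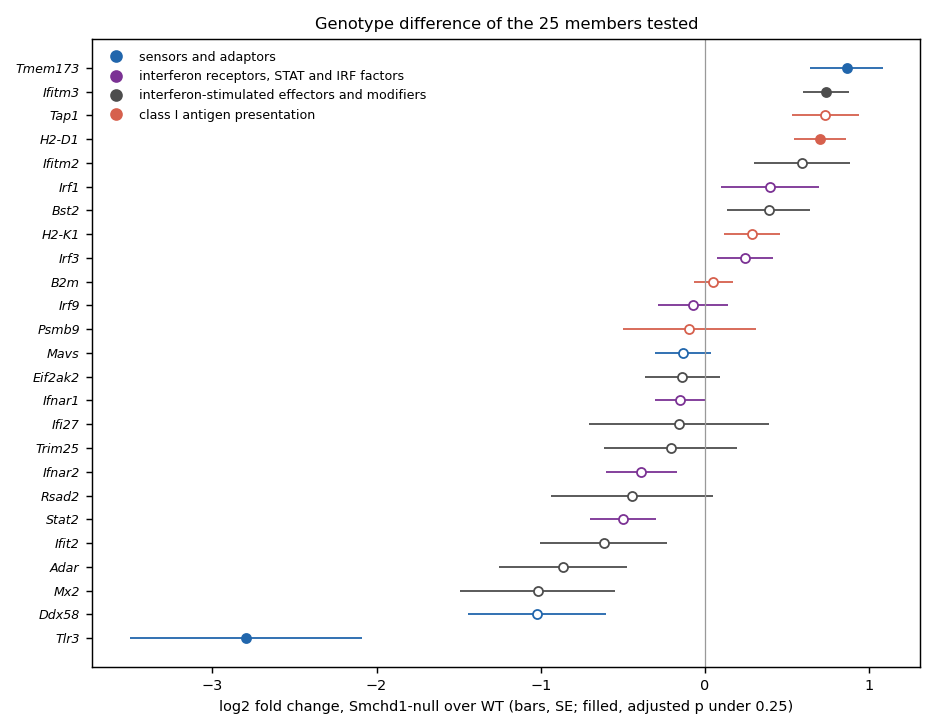
LogFC of Smchd1-null over WT with SE for the 25 genes tested, coloured by role, with filled points for an adjusted p under 0.25. Values run from -2.80 for Tlr3 to 0.86 for Tmem173, with 15 of the 25 below 0.

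Among the sensors and adaptors, Tmem173 and Tlr3 were called in opposite directions. Tmem173 encodes STING, the adaptor that carries the signal of cytosolic DNA from cGAS, and stood at 13.9, 9.33, 8.13 and 13.5 CPM in WT 1 to 4 and at 20.6, 19.6 and 17.1 CPM in null 1 to 3. Every Smchd1-null sample was above every WT sample, and the logFC was 0.86 ± 0.22 (SE, limma adjusted p = 0.233). Its Smchd1-null minus WT difference in log-CPM was 1.07 within batch 1 and 0.68 within batch 2. Here and below, such differences leave out WT 1. They rest on WT 2 as the only WT sample of batch 1 and on null 3 as the only Smchd1-null sample of batch 2. The call ended in 14 of 23 alternatives. Among these were edgeR (0.75, adjusted p = 0.858), DESeq2 (0.75, adjusted p = 0.709) and unweighted voom (0.76, adjusted p = 0.849). It also ended on leaving out null 1 (0.78, adjusted p = 0.996), null 2 (0.79, adjusted p = 1.00), WT 1 (1.00, adjusted p = 0.534), WT 3 (0.68, adjusted p = 0.517) or WT 4 (0.92, adjusted p = 0.303).

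Tlr3, the endosomal sensor of long RNA duplexes (chr8:45395665-45411080, minus strand), stood at 8.79, 2.22, 3.41 and 3.77 CPM in WT and at 0, 1.46 and 1.52 CPM in Smchd1-null samples. The groups did not overlap, though the gene rested on 99 counts in all, 36 of them in WT 1 and 0 in null 1. The logFC was -2.80 ± 0.71 (limma adjusted p = 0.233), and -1.48 without null 1 (adjusted p = 0.996). The call ended in 16 of 20 alternatives. Among these were also batch as a term (-2.06, adjusted p = 0.379) and leaving out null 2 (-2.98, adjusted p = 1.00), WT 1 (-2.50, adjusted p = 0.595) or WT 3 (-2.90, adjusted p = 0.423).

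The sensors of cytosolic RNA gave no call. Ddx58 (RIG-I) was at 8.30, 3.11, 4.19 and 8.75 CPM in WT and at 2.25, 2.26 and 6.71 CPM in Smchd1-null samples. The low values were those of null 1 and null 2, both of batch 1, and null 3 lay within the WT range. Its logFC was -1.02 ± 0.42 (limma adjusted p = 0.326) and -0.22 with batch as a term (adjusted p = 0.917). Ifih1 (MDA5) had 22 counts in all and was not tested, and Mavs, the adaptor on mitochondria that both RNA sensors use, was at 20.5 to 27.4 CPM in WT and 19.3 to 22.2 CPM in Smchd1-null samples (logFC -0.13 ± 0.17, limma adjusted p = 0.724). Tlr2, a sensor of bacterial lipoproteins, had 8 counts in all.

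None of the 6 tested receptors and factors was called. Stat2, a signal transducer of the type I interferon receptor, was at 16.6, 16.0, 12.6 and 17.0 CPM in WT and 9.76, 10.8 and 11.9 CPM in Smchd1-null samples. All 3 Smchd1-null values were below all WT values, and the logFC was -0.50 ± 0.20 (limma adjusted p = 0.323). Irf1, a factor induced by interferon gamma, also did not overlap between groups, but in the opposite direction. It was at 3.91, 2.67, 4.72 and 5.14 CPM in WT and 5.26, 5.19 and 6.49 CPM in Smchd1-null samples. Its logFC was 0.40 ± 0.30 (limma adjusted p = 0.543), and 0.67 ± 0.28 with batch as a term (limma adjusted p = 0.572). The receptor chains Ifnar1 (40.9 to 48.7 CPM in WT, 31.9 to 42.9 CPM in Smchd1-null samples) and Ifnar2 (9.60 to 15.1 and 9.18 to 12.3 CPM) overlapped between groups, with adjusted p-values of 0.662 and 0.417 by limma. Irf3 was at 39.8, 54.0, 43.8 and 37.7 CPM in WT and 56.7, 54.2 and 34.9 CPM in Smchd1-null samples. Its 3 highest values were those of the 3 samples sequenced in batch 1 alone. Irf9, the DNA-binding partner of STAT2, differed by -0.07 ± 0.21 (limma adjusted p = 0.895), and shares 123 exon bases with Rnf31 on the same strand.

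Among the 10 effectors tested, Ifitm3 alone was called at 0.25, and it had the lowest p of all members. Ifitm3 (chr7:141009586-141010770, minus strand) was at 105, 64.9, 95.4 and 99.5 CPM in WT 1 to 4 and at 157, 152 and 145 CPM in null 1 to 3. Every Smchd1-null sample was above every WT sample, and means were 91.1 ± 17.9 CPM (SD, n = 4) and 151 ± 6.01 CPM (SD, n = 3). The logFC was 0.74 ± 0.14 (limma adjusted p = 0.0816). The difference in log-CPM was 1.24 within batch 1, where it rests on WT 2, the lowest of the WT samples. It was 0.57 within batch 2, where it rests on null 3. With batch as a term the logFC was 0.91 (limma adjusted p = 0.0133). Its logFC stayed between 0.50 and 0.96 over all alternatives, but the call at 0.25 ended without null 1 (0.69, adjusted p = 0.996), without null 2 (0.71, adjusted p = 0.884), without sample weights (0.75, adjusted p = 0.520), with edgeR (0.73, adjusted p = 0.412) and with the trend of logFC on gene length removed (0.50, adjusted p = 0.476).

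The neighbouring family members gave no call. Ifitm2 (chr7:140954837-140955987, minus strand) was at 7.81, 17.5, 8.91 and 13.5 CPM in WT and 13.5, 19.6 and 9.74 CPM in Smchd1-null samples, with the highest value of each group in batch 1 (logFC 0.59 ± 0.29, limma adjusted p = 0.380). With batch as a term its logFC was 0.06 (adjusted p = 0.968). Ifitm2 shares 268 of its 655 exon bases with Gm45717 on the same strand, a gene with 0 counts. The part of this overlap in the level of Ifitm2 was not tested. Ifitm1 had 4 counts in all. The Ifitm genes are close copies of one another, and reads could be assigned to the wrong copy. A difference between the logFC values of the family members was not tested.

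Other effectors gave no call, and those with the lowest p were lower in Smchd1-null samples. Adar, the editor of adenosine in RNA duplexes, was at 5.13, 4.66, 4.46 and 3.77 CPM in WT and 1.13, 3.19 and 3.90 CPM in Smchd1-null samples, with a logFC of -0.86 ± 0.39 (limma adjusted p = 0.348), and the groups overlapped at null 3. Mx2, the other Mx GTPase, was at 2.20, 2.22, 2.62 and 3.60 CPM in WT and 2.63, 0.932 and 0.649 CPM in Smchd1-null samples, with a logFC of -1.02 ± 0.47 (limma adjusted p = 0.359) on 67 counts in all. The low values here were those of null 1 for Adar (3 counts) and of null 2 and null 3 for Mx2 (7 and 3 counts). Bst2 was at 19.0, 20.2, 8.91 and 20.2 CPM in WT and 20.6, 20.2 and 16.2 CPM in Smchd1-null samples, with WT 3 alone below the others (logFC 0.39 ± 0.25, limma adjusted p = 0.478). Rsad2 (viperin) ranged from 0.751 CPM in null 1 to 6.06 CPM in null 3, wider than the 2.57 to 3.41 CPM of WT. Eif2ak2 (PKR, the kinase that halts translation on RNA duplexes), Ifit2, Trim25 (a ubiquitin ligase that acts on RIG-I) and Ifi27 also overlapped between groups, with logFC values from -0.62 to -0.14 and adjusted p-values from 0.462 to 0.913 by limma. With batch as a term, the logFC of Ifi27 (0.44), Trim25 (0.15), Eif2ak2 (0.0078) and Rsad2 (0.18) was above 0. Adar shares 1365 of its 8118 exon bases with Chrnb2 on the opposite strand.

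**Figure D3:**
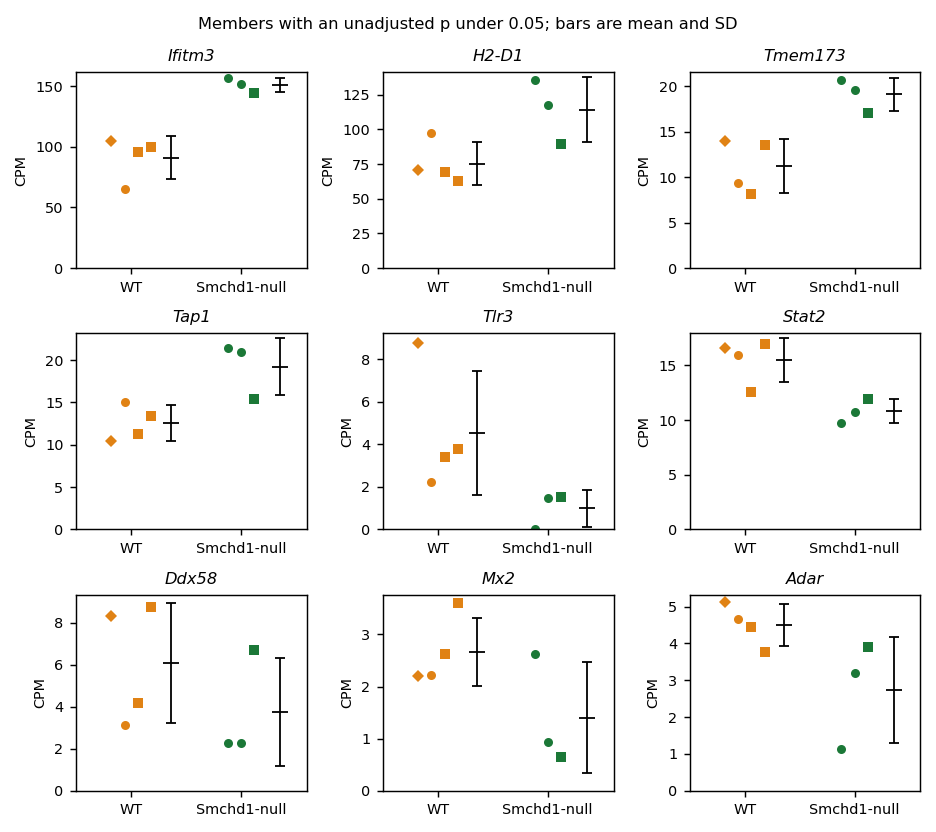
CPM per sample of the 9 genes with an unadjusted p under 0.05, WT in orange and Smchd1-null in green, with circles for batch 1, squares for batch 2, a diamond for WT 1 of both batches, and bars for mean and SD. Ifitm3, Tmem173, Tap1, Tlr3 and Stat2 do not overlap between genotypes, whereas H2-D1, Ddx58, Mx2 and Adar do.

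In class I antigen presentation, H2-D1 rose at the 0.25 cutoff and Tap1 was just outside it. H2-D1 (chr17:35262730-35267499, plus strand) was at 70.6, 97.7, 69.5 and 62.8 CPM in WT 1 to 4 and at 136, 118 and 89.4 CPM in null 1 to 3. The groups overlapped at null 3, which lay below WT 2, while within each batch the Smchd1-null samples were above the WT samples. The logFC was 0.70 ± 0.16 (limma adjusted p = 0.176), with within-batch differences of 0.37 and 0.43 in log-CPM, and 0.42 with batch as a term (limma adjusted p = 0.235). The call at 0.25 ended in 13 of 23 alternatives, among them edgeR (adjusted p = 0.858). It also ended without null 1 (logFC 0.50, adjusted p = 0.996), null 2 (0.57, adjusted p = 1.00), WT 1 (0.67, adjusted p = 0.595), WT 3 (0.64, adjusted p = 0.467) or WT 4 (0.66, adjusted p = 0.301).

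Tap1 is a subunit of the transporter that loads peptides onto class I molecules. It was at 10.5, 15.1, 11.3 and 13.4 CPM in WT and 21.4, 20.9 and 15.4 CPM in Smchd1-null samples. The groups did not overlap (logFC 0.73 ± 0.20, limma adjusted p = 0.257), though null 3 and WT 2 were close together. With batch as a term its logFC was 0.49 (limma adjusted p = 0.471). Psmb9, an immunoproteasome subunit transcribed from the other side of the promoter shown above, was at 1.71, 3.78, 5.77 and 4.29 CPM in WT and 2.63, 3.33 and 5.20 CPM in Smchd1-null samples (logFC -0.09 ± 0.41, limma adjusted p = 0.933). The genes share 212 exon bases on opposite strands, and a difference between the logFC values of the genes was not tested.

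B2m and H2-K1, abundant class I chains like H2-D1, were not called between genotypes. B2m was at 200.2, 220, 204 and 266 CPM in WT and 225, 227 and 195 CPM in Smchd1-null samples (logFC 0.05 ± 0.12, limma adjusted p = 0.864). H2-K1 was at 223, 295, 193 and 151 CPM in WT and 268, 285 and 178 CPM in Smchd1-null samples (logFC 0.29 ± 0.17, limma adjusted p = 0.447). The 3 samples of batch 1 alone held its 3 highest values, and with batch as a term its logFC was -0.06 (adjusted p = 0.920). H2-K1 and H2-D1 are close copies of each other, and FVB/N carries another haplotype of this locus than the C57BL/6J reference to which the reads were aligned, so the split of counts between them is uncertain.

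Of a wider list of 146 pathway genes, 145 were matched, 74 were tested and 1 was called at 0.25, Gbp7, an interferon-inducible GTPase. Gbp7 was at 28.3, 28.7, 35.9 and 19.0 CPM in WT and 9.76, 14.9 and 18.8 CPM in Smchd1-null samples, lower in every Smchd1-null sample than in any WT sample (logFC -1.08 ± 0.23, limma adjusted p = 0.144). Null 3 at 18.8 CPM and WT 4 at 19.0 CPM were nearly equal, and the call ended in 11 of 23 alternatives. Among these were edgeR (adjusted p = 0.858) and leaving out null 1, null 2, WT 1 or WT 3 (adjusted p = 0.996, 1.00, 0.485 and 0.432). At an unadjusted p below 0.05 there were 4 of the 74, all lower in Smchd1-null samples, a share below the 13.9% of all genes, and the call of 1 of the 74 at 0.25 was near the 1.08% of all genes. The others were Gbp3 (logFC -0.67 ± 0.22), Jak2, a kinase of cytokine receptors (-0.40 ± 0.14), and Irf2, a repressor of IRF1 targets (-0.47 ± 0.19), with limma adjusted p-values of 0.289, 0.294 and 0.323. By role, 0 of 6 other sensors and adaptors, 0 of 18 kinases and signal transducers, 0 of 11 interferons, receptors, factors and inhibitors, 1 of 24 interferon-stimulated genes and 0 of 15 antigen presentation genes were called. The fitted values of the 74 had a median logFC of -0.05, with 32 above 0 and 42 below. Of the genes that were not tested, 9 had 0 counts in all 7 samples, among them the interferon genes Ifnb1 and Ifnk.

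Sequencing batch and gene length moved with several of these genes. In the fit with genotype and batch share, 8 of the 25 genes were called for batch at 0.25 and 5 at 0.05, against 38.7% and 12.4% of all genes, a share of members no larger than the background at 0.25. H2-K1 was lower in batch 2 by a logFC of -0.67 ± 0.10 (limma adjusted p = 0.00256), H2-D1 by -0.52 ± 0.11 (0.0115), Irf3 by -0.55 ± 0.13 (0.0182) and Ifitm2 by -0.82 ± 0.25 (0.0481). Ddx58 was higher in batch 2 by 1.19 ± 0.36 (limma adjusted p = 0.0450). At 0.25 only, Tap1 and Bst2 were lower and Rsad2 higher in batch 2, and Ifitm3 and Tmem173 were not called (0.17 ± 0.14 and -0.12 ± 0.20). These batch calls fell to 0 without WT 2, which leaves WT 1 as the only WT sample with reads from batch 1, or without null 3, the only Smchd1-null library of batch 2, numbered 10 without WT 1, and edgeR called 4. Batch 1 holds 2 of the 3 Smchd1-null samples and only WT 2 of the WT samples that were in 1 batch. The sign of the genotype difference was the same within both batches for 14 of the 25 genes. The share of all genes with the same sign is not given here, so this count cannot be read as particular to these genes.

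Across genes, the genotype logFC fell with gene length, with a Spearman rho of -0.38 over all tested genes and -0.58 over the 25 members, while the batch term rose with it (0.35 and 0.45). Genes are not independent replicates and the points share the same libraries, so these are descriptions. The called genes that were higher in Smchd1-null samples had lengths of 678 bases (Ifitm3), 2579 bases (H2-D1) and 2741 bases (Tmem173), and Tlr3, which was lower, had 5207 bases, against a median of 4160 bases over all tested genes. Tap1, at 5476 bases, was long and had a logFC of 0.73, or 0.49 with batch as a term. After the trend over all genes was removed, which brought rho to 0.027 over all genes and -0.42 over members, only H2-D1 was called at 0.25 (logFC 0.62, adjusted p = 0.234), with Tlr3 at -2.69 (0.262) and Tmem173 at 0.80 (0.277). With both the trend removed and batch as a term, Ifitm3 (0.82, adjusted p = 0.0489), H2-D1 (0.42, 0.192) and Tmem173 (0.88, 0.116) were called by limma. The part of gene length in the genotype differences was not tested.

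**Figure D4:**
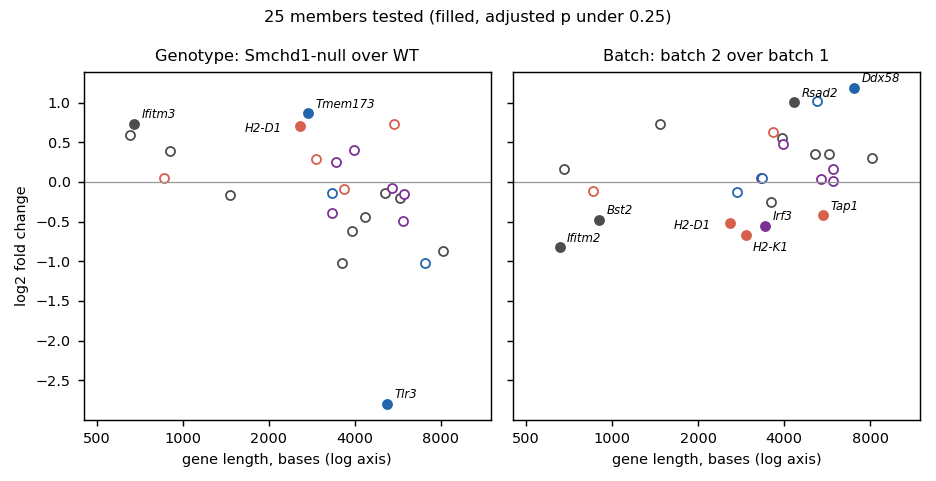
Fitted log2 fold changes of the 25 tested genes against gene length in bases (log axis), for genotype (left, Smchd1-null over WT) and batch (right, batch 2 over batch 1 in the fit with both terms), coloured by role as in the plot of genotype fold changes, with names and filled points for an adjusted p under 0.25. The rho is -0.58 on the left and 0.45 on the right, and H2-D1 is named in both, higher in Smchd1-null samples and lower in batch 2.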

How the data were processed

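Gene-level counts per sample were deposited by the authors as raw counts with a gene length. Per the submitters' notes and the study's methods, nanopore reads were base-called, filtered, trimmed and aligned to mm10 with minimap2 2.17, and counted per gene with featureCounts. The counting strand is not given in the sources used here. Gene symbols came from Gencode M21 (GRCm38) with versions ignored, which left 181 of 55335 identifiers unmatched. H2-L of the wider list had no match. Libraries held 2741820 to 7736498 counts, so 3 counts equal 0.399 to 1.13 CPM.

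The 38 members and all lists were chosen with earlier results of these data known. Genes passing filterByExpr were TMM-scaled (edgeR 4.0.16) and fitted on genotype with voomWithQualityWeights in limma 3.58.1 (R 4.3.3), with Benjamini-Hochberg adjustment over all 13305 genes and cutoffs of 0.05 and 0.25. CPM uses TMM-scaled library sizes, and log-CPM a prior count of 2. In a further fit, the batch share was 0, 1 or, for WT 1, 0.5. Text names go to Smchd1, members with an adjusted p under 0.25, an unadjusted p under 0.05 or no overlap, the 3 most abundant of each role per kb, and up to 10 pathway genes with an adjusted p under 0.25. Other members and pathway genes named were added after their values were seen. Each result was also recomputed with DESeq2 1.42.0, edgeR's quasi-likelihood test, unweighted voom, other scalings and filters, batch, a replicate block, thinned counts, leaving out each sample and, chosen after seeing the data, removal of a length trend (lowess span 0.3). The scripts were tested on simulated data. Promoter windows came from RefSeq.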

Additional observations from a re-analysis of the deposited data

Results flagged for a closer look

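Of 27 genes checked in the 4 WT samples, 2 had a sample far from the others, where chance alone is taken to give about 5% of groups of 4. Irf9 was low in WT 2, at a log-CPM of 3.11 against 3.52 to 3.54 in the other WT samples. Bst2 was low in WT 3, at a log-CPM of 3.22 against 4.28 to 4.37 in the others, and without WT 3 its logFC between genotypes was -0.0016.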

How the results depend on the processing

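The number of members called at 0.25, 4 as reported, was 0 with edgeR, 1 with DESeq2, 0 with voom without sample weights, 1 with every gene of at least 1 count kept, 1 with batch as a term and WT 1 left out, and 2 with counts thinned to the smallest library. Among the alternatives chosen after seeing the data it was 1 with the length trend removed, and 0 with edgeR or with unweighted voom when batch was a term. On leaving out each sample in turn it ranged from 0 (without null 1 or null 2) to 13 (without null 3), with 9 without WT 2. At 0.05 the count of 0 became 1 (Ifitm3) with batch as a term, with or without WT 1 or with the length trend removed, and ranged from 0 to 2 (without null 3) on leaving out each sample. Pathway genes called at 0.25, 1 as reported, were 0 with edgeR, DESeq2, unweighted voom or every counted gene kept, 0 with batch as a term under edgeR, unweighted voom or without WT 1, 2 with at least 10 counts in every sample, and 0 to 10 on leaving out each sample. Members called for batch, 8 as reported, were 4 with edgeR, 10 without WT 1 and 0 to 9 on leaving out each other sample. The median logFC of the tested members, -0.13, was -0.025 over every counted member, 0.25 over the 17 with at least 10 counts in every sample, 0.17 after thinning, 0.0078 with batch as a term, -0.018 with batch under unweighted voom, and -0.015 with batch and the length trend removed. It ranged from -0.16 to 0.048 on leaving out each sample. The share of all genes called is not given for these alternative fits, so their counts cannot be set against a background or read as particular to these genes. The cause of these changes was not tested.

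Same-numbered WT and Smchd1-null samples correlated in their deviations from the group means at -0.038, 0.36 and 0.094, not every sample correlated best with its own number, and the samples share only a number. With a replicate block, 2 members were called at 0.25 (Ifitm3 and Tmem173) and 1 at 0.05, the median logFC was 0.019, and with the length trend also removed 1 was called at 0.05 and the median was 0.022.

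With batch as a term, 6 members described by their ranges also turned from below to above 0, none of them called, namely Ifi27 (0.44), Rsad2 (0.18), Trim25 (0.15), Psmb9 (0.06), Irf9 (0.01) and Eif2ak2 (0.0078). Among members under the naming rule, those with no call changed sign as follows. B2m was at -0.047 with edgeR, -0.049 with DESeq2, -0.042 with unweighted voom, -0.015 with every counted gene, -0.024 with batch, -0.056 with batch and without WT 1, -0.17 with the length trend removed, -0.097 with that and batch, -0.085 with that and the replicate block, -0.059 with edgeR and batch, -0.055 with unweighted voom and batch, and -0.028 to 0.094 on leaving out each sample. H2-K1 was at -0.058 with batch, -0.063 with batch and without WT 1, -0.0035 with the replicate block, -0.066 and -0.012 with the length trend removed and batch or the block, -0.022 with edgeR and batch, and -0.018 with unweighted voom and batch. Irf3 was at -0.026 with batch, -0.067 with batch and without WT 1, -0.015 with the length trend removed and batch, -0.022 with edgeR and batch, -0.015 with unweighted voom and batch, and -0.0038 to 0.34 on leaving out each sample. Ifitm2 was at -0.065 with batch and without WT 1 and -0.045 with the length trend removed and batch. Bst2 ranged from -0.0016 to 0.50 on leaving out each sample. Tlr3 and Mx2 did not pass the filter after thinning, without WT 4 or with at least 10 counts in every sample, and Adar and Ddx58 did not pass the last of these.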

Other observations

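Outside the 38 members, the most abundant genes of the wider pathway list were the chaperones that fold class I molecules in the endoplasmic reticulum. Calr stood at 542 ± 58.9 CPM (SD, n = 4) in WT and 525 ± 28.1 CPM (SD, n = 3) in Smchd1-null samples, Canx at 461 ± 27.2 and 464 ± 20.2 CPM, and Pdia3 at 313 ± 27.2 and 300.2 ± 26.2 CPM. Limma adjusted p-values for the genotype difference of these genes were 0.990, 0.984 and 0.662. The RNA helicase genes Dhx9 and Dhx36, which also act outside innate sensing, stood at 241 ± 40.8 and 98.5 ± 11.0 CPM in WT and 221 ± 34.0 and 85.9 ± 11.0 CPM in Smchd1-null samples, with limma adjusted p-values of 0.405 and 0.374. These genes were chosen after their values were seen.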
